A study of Homo sapiens with 6 samples.

Results

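The genes described here are the enzymes and carriers of glycolysis and genes induced by hypoxia, 32 genes matched by symbol among the 61806 genes of the count table. Their poly(A) transcripts were sequenced in the leukaemia cell line NB4, derived from acute promyelocytic leukaemia and arrested at the promyelocyte stage of granulocyte development. In 3 libraries the cells carried a lentivirus for overexpression of CD69, an early activation antigen of leukocytes, and in 3 libraries they were controls, called wild-type in the sample records and vector control in the design text. No drug was given, all cells were growing exponentially in 1 medium at harvest, and the labels give 1 batch. Whether a group is more than 1 transduced population is not stated. The members were split by their role into 21 genes of glucose uptake, glycolysis and the fate of pyruvate, and 11 other targets of the hypoxia-inducible factors (HIF). All 32 passed the filter on low counts.

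Glycolysis converts glucose to pyruvate in the cytosol and yields ATP without oxygen. Several of its steps can be run by more than 1 isozyme, encoded by different genes, and the choice of isozyme differs between tissues. HIF is a pair of proteins, an oxygen-regulated alpha subunit (HIF1A or EPAS1) and ARNT. With oxygen present, prolyl hydroxylases of the EGLN family mark the alpha subunit for destruction through VHL. At low oxygen HIF binds short DNA elements with the core letters ACGTG or GCGTG and raises glycolytic genes together with genes such as CA9, BNIP3, NDRG1 and EGLN3. Leukaemia cells in culture are known for high glycolysis.

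The introduced gene differed little: CD69 measured 80.4, 81.9 and 70.6 CPM (counts relative to library size, with TMM scaling) across controls against 98.3, 99.1 and 95.7 CPM under CD69 overexpression, without overlap. Its log2 fold change was 0.33 (SE 0.07; quasi-likelihood adjusted p = 0.0153), and the call was lost without overexpressing replicate 2 (adjusted p = 0.0618). The groups are therefore named by their labels throughout. Total counts lay between 51543550 and 57463020 per library. CD69 overexpressing replicate 1 stood apart from its group on the first principal component (score 32.4, compared with 74.8 and 74.3 for the other overexpressing libraries and -61.7 to -59.5 for controls). Of 10 promyelocyte markers, CTSG, AZU1, PRTN3, ELANE, CD33, ANPEP, SPI1 and CEBPA were at 45.0 CPM or more in every library, whereas MPO, a defining promyelocyte gene, lay between 0.518 and 1.45 CPM. These markers differed between the groups: PRTN3 rose 5.28-fold, ELANE 3.78-fold and AZU1 1.84-fold, SPI1 fell by 0.37 on the log2 scale, and 6 did not pass the test. Their part in the results on glycolysis and HIF targets was not tested. Of the 10 fibroblast and epithelial markers, the summed level was 127 to 141 CPM in the controls and 131 CPM in overexpressing replicate 1, but 47.7 and 45.2 CPM in replicates 2 and 3, and none of the 10 was at 0 in every library. In the controls the keratins KRT8 and KRT18 carried most of this sum. The 10 B lineage markers summed to 168 to 200.4 CPM in the controls and to 128, 238 and 230.2 CPM in overexpressing replicates 1, 2 and 3. Single B lineage markers differed more: 5 were higher and 1 lower, with log2 fold changes from -1.77 to 3.55. Of the 4 T and NK markers tested, 1 was higher and 3 were lower (-4.31 to 0.81), and none of 3 tested erythroid markers was called. Over all genes tested 24.1% were called. In bulk RNA, fewer cells of a type and less RNA per cell cannot be told apart.

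Levels are compared between genes as CPM per kb of exon. In the controls GAPDH was highest, at 1235 ± 149 CPM per kb (SD, n = 3), followed by ENO1 (686 ± 92.4), PKM (282 ± 27.6), ALDOA (270 ± 39.2) and TPI1 (260 ± 38.2), the last 3 within their spread of each other. Among the HIF targets outside glycolysis P4HA1 was highest (19.5 ± 0.594 CPM per kb), and P4HA2, EGLN3, ANKRD37, CA9 and BNIP3 all lay below 1 CPM per kb. The low HIF targets were thus orders of magnitude below the abundant glycolytic enzymes.

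**Figure D1:**
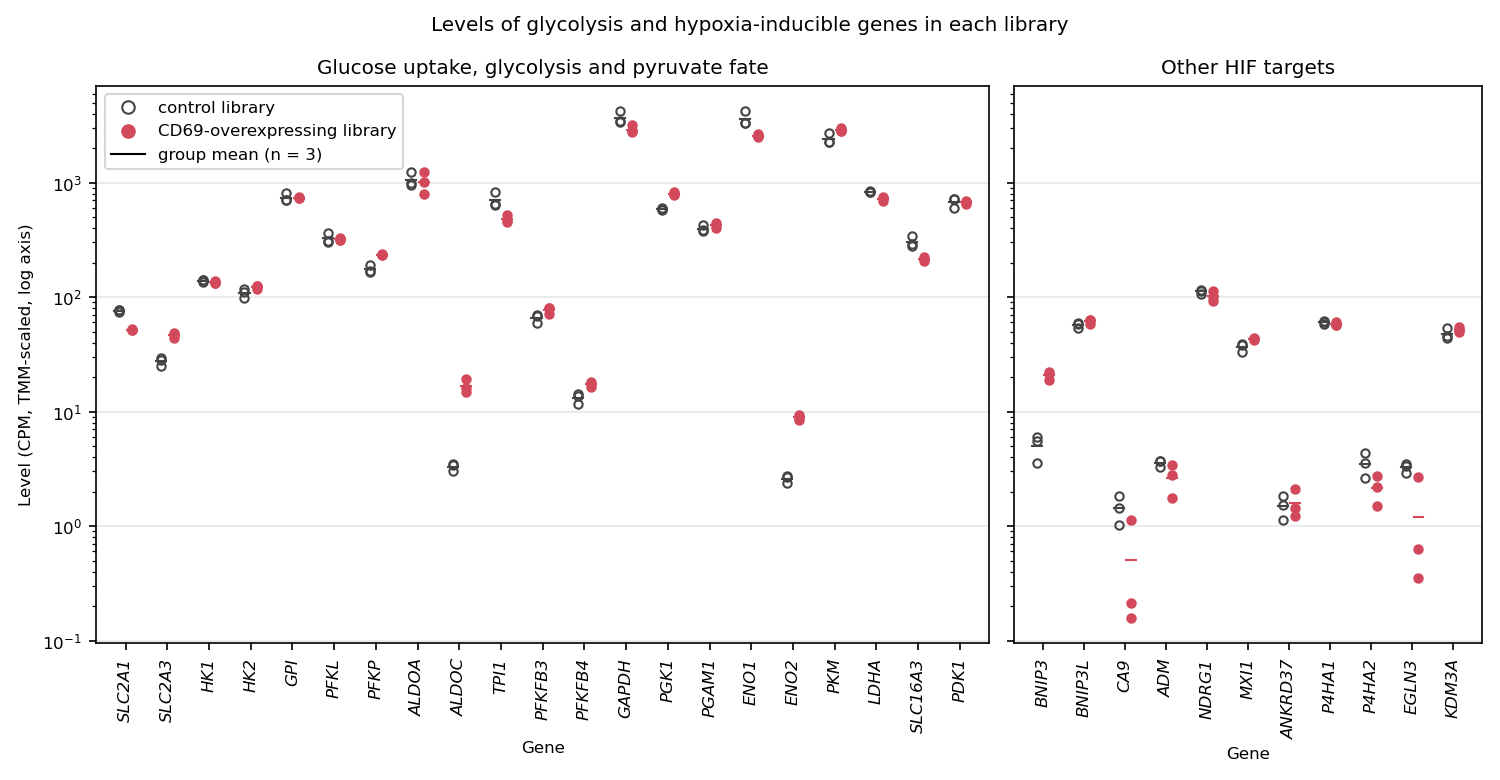
Level of each of the 32 genes in each library (vertical axis: CPM on a log scale; open points: control libraries; filled points: CD69-overexpressing libraries; short lines: group means, n = 3). The glycolysis genes span from ENO2 at 2.36 CPM to GAPDH at 4193 CPM, and ALDOC, ENO2 and BNIP3 show the widest gap between the groups, all higher in the overexpressing libraries.

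Glycolysis genes moved in both directions. Of the 21 measured, 6 were higher, 6 were lower and 9 did not pass the test (quasi-likelihood test of edgeR at an adjusted p under 0.05, by Benjamini and Hochberg), with a median log2 fold change of 0.01. The background over all 19485 tested genes was 14.2% higher and 9.94% lower, 24.1% called in either direction, and a median of 0.01. Of the 10248 coding genes of at least 5 CPM, 1835 were higher and 1599 lower, a larger share than over all genes tested. The glycolysis genes that rose were SLC2A3, PFKP, ALDOC, PFKFB4, PGK1 and ENO2, and those that fell were SLC2A1, TPI1, GAPDH, ENO1, LDHA and SLC16A3. Summed over the 21 genes, the level was 15038, 15093 and 17733 CPM across controls against 14319.7, 13843 and 15230.0 CPM under CD69 overexpression, and the groups overlapped. Of the 11 other HIF targets, BNIP3 rose and 10 did not pass the test, with a median of -0.05. None of the 11 fell in this test, while 1 of them, P4HA2, had an unadjusted p under 0.05 and a negative fold change, limma-voom called 1 lower and DESeq2 called none lower.

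**Figure D2:**
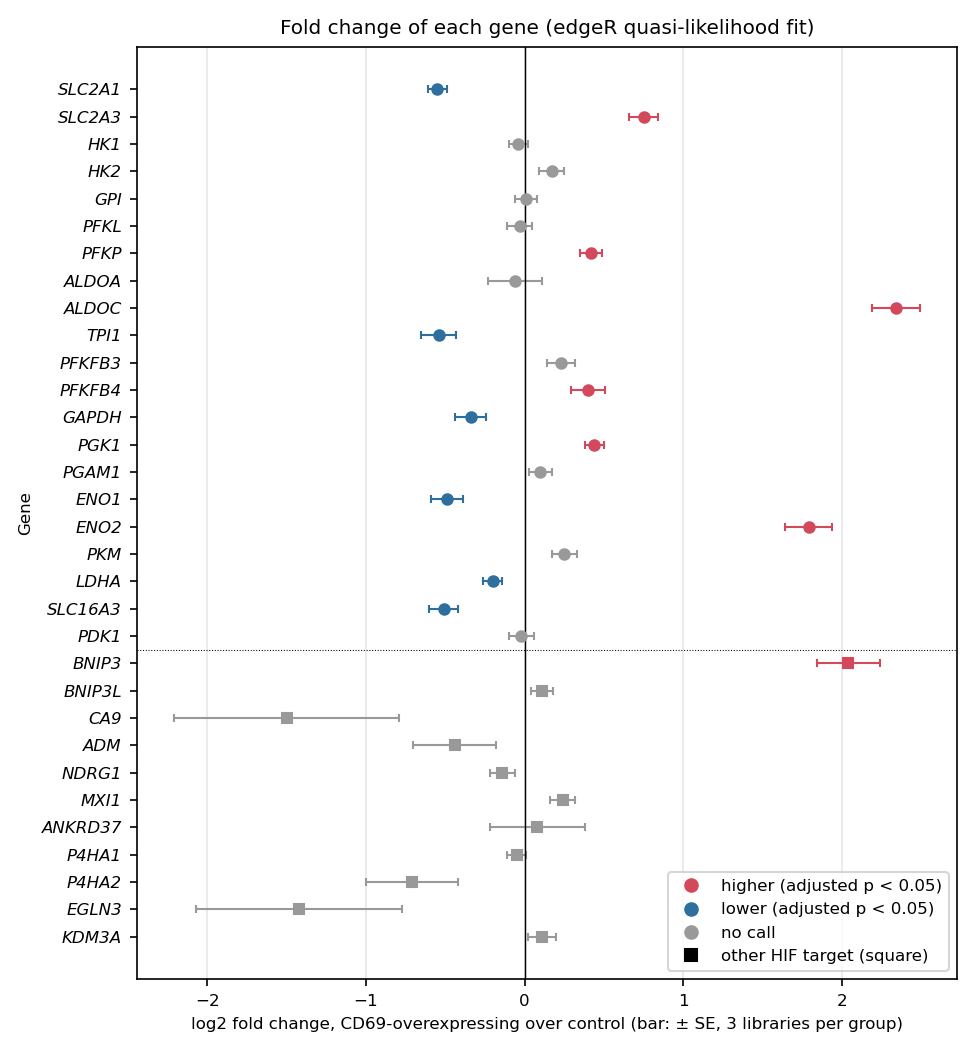
log2 fold change of each gene, CD69-overexpressing over control, with its standard error (horizontal axis; circles: glycolysis genes; squares: other HIF targets; colour: result of the edgeR test). ALDOC (2.34), BNIP3 (2.04) and ENO2 (1.79) lie far to the right, the 6 lower genes lie between -0.55 and -0.20, and CA9 and EGLN3 have the widest bars.

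Glucose enters cells through facilitative transporters. SLC2A1 encodes GLUT1, the broadly expressed carrier, and SLC2A3 encodes GLUT3, a high-affinity carrier known from neurons and leukocytes. SLC2A1 (ENSG00000117394; GRCh38 chromosome 1, 42925375 to 42959176, minus strand) measured 74.2, 76.8 and 77.1 CPM across controls against 53.0, 51.6 and 51.2 CPM under CD69 overexpression. SLC2A3 (ENSG00000059804; chromosome 12, 7919230 to 7936275, minus strand) measured 28.3, 29.1 and 25.1 CPM across controls against 48.5, 47.0 and 43.5 CPM under CD69 overexpression. The carriers thus moved in opposite directions and in neither case did the groups overlap. SLC2A1 fell by 0.55 on the log2 scale (SE 0.06; quasi-likelihood adjusted p = 0.000627) and SLC2A3 rose by 0.75 (SE 0.09; quasi-likelihood adjusted p = 0.000788). The GLUT3 gene made up 21.7 ± 1.51% of the counts per kb of both genes in the controls and 40.6 ± 0.986% with CD69 (SD, n = 3), a difference of 18.9 percentage points. Its near-identical copy SLC2A14, whose reads may be exchanged with those of SLC2A3, was at 0.25 to 0.763 CPM.

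The first steps of the pathway trap and split the sugar. Hexokinases HK1 and HK2 phosphorylate glucose, and neither passed the test (log2 fold changes -0.04, SE 0.06, and 0.17, SE 0.08). HK2, the inducible enzyme, was nevertheless at 117, 110.4 and 99.0 CPM across controls against 124, 124 and 117 CPM under CD69 overexpression, where the lowest overexpressing library lay just above the highest control before rounding. The isomerase GPI and the liver-type phosphofructokinase PFKL were near 0 (0.01, SE 0.07, and -0.03, SE 0.08). The platelet-type phosphofructokinase PFKP, which runs the committed step, measured 166, 169.8 and 190.3 CPM across controls against 235, 236 and 234 CPM under CD69 overexpression. All 3 overexpressing libraries were above every control. PFKP rose by 0.42 (SE 0.07; quasi-likelihood adjusted p = 0.0039), and glmTreat with a minimum fold of 1.2 did not call it (adjusted p = 0.0508). PFKFB3 and PFKFB4 make and break fructose 2,6-bisphosphate, the activator of phosphofructokinase. PFKFB4 measured 14.1, 11.6 and 13.7 CPM across controls against 17.3, 18.3 and 16.5 CPM under CD69 overexpression, a rise of 0.40 (SE 0.11; quasi-likelihood adjusted p = 0.0365). That call was lost when any 1 library other than control replicate 3 was left out (adjusted p = 0.065 to 0.145), and the gene shares 289 bases of exon with UCN2. PFKFB3 measured 70.2, 68.0 and 58.8 CPM across controls against 79.9, 80.0 and 71.2 CPM under CD69 overexpression. Its groups did not overlap, but it did not pass the test (0.23, SE 0.09).

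Aldolase splits the sugar into trioses. ALDOA encodes the main aldolase of muscle and most dividing cells, and ALDOC the isozyme known from brain. ALDOC (ENSG00000109107; chromosome 17, 28573115 to 28577264, minus strand) measured 3.02, 3.47 and 3.41 CPM across controls against 16.2, 14.7 and 19.3 CPM under CD69 overexpression. Each overexpressing library lay well above every control, and the rise was 5.06-fold (log2 2.34, SE 0.15; quasi-likelihood adjusted p = 6.47e-05). ALDOA measured 983, 953 and 1232 CPM across controls against 1003, 793 and 1248 CPM under CD69 overexpression, with overlapping groups (log2 fold change -0.06, SE 0.17). It shares 1657 bases of exon on its own strand with ENSG00000285043, which held 163, 180 and 198 CPM across controls against 233, 423 and 125 CPM under CD69 overexpression. The sum of both was 1146, 1133 and 1430 CPM against 1237, 1216 and 1373 CPM, a narrower spread in the overexpressing group than for ALDOA alone. ALDOC made up 0.421 ± 0.0591% of ALDOA and ALDOC counts per kb in the controls and 2.18 ± 0.205% in the overexpressing libraries (SD, n = 3), so that it remained the minor isozyme. TPI1, which interconverts the trioses, measured 637, 649.6 and 822 CPM across controls against 473, 456 and 518 CPM under CD69 overexpression. The groups did not overlap, and TPI1 fell by 0.54 (SE 0.11; quasi-likelihood adjusted p = 0.00949), a call lost without overexpressing replicate 2 (adjusted p = 0.0524).

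The later steps of glycolysis yield ATP. GAPDH, which oxidises the triose phosphate, measured 3397, 3454 and 4193 CPM across controls against 2805, 2764 and 3155 CPM under CD69 overexpression. Control replicate 3 was the highest of all libraries for GAPDH, as it was for ENO1 and TPI1. GAPDH fell by 0.34 (SE 0.10; quasi-likelihood adjusted p = 0.0388). The call was lost when any 1 library other than overexpressing replicate 3 was left out (adjusted p = 0.0528 to 0.154), and the fall was 0.23 without control replicate 3. PGK1, which makes the first ATP of the payoff phase, measured 582, 587 and 605 CPM across controls against 801, 777 and 832 CPM under CD69 overexpression, a rise of 0.44 (SE 0.06; quasi-likelihood adjusted p = 0.00128). PGK1 lies on chromosome X (77910739 to 78129296, plus strand), where 219 of the 326 coding genes of at least 5 CPM were higher and 10 lower, at a median of 0.49 on the log2 scale, against a median of -0.01 over all 10248 such genes. PGK1 was thus close to the median of its chromosome, and the part of the chromosome in its rise was not tested. PGAM1, the phosphoglycerate mutase, did not pass the test (0.10, SE 0.07).

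The enolase genes, which encode the next enzyme, moved in opposite directions. ENO1 (ENSG00000074800; chromosome 1, 8861000 to 8879250, minus strand), the enolase of most tissues, measured 3339, 3341 and 4185 CPM across controls against 2561, 2495 and 2656 CPM under CD69 overexpression. ENO2 (ENSG00000111674; chromosome 12, 6913745 to 6923698, plus strand), the enolase of neurons, measured 2.36, 2.71 and 2.66 CPM across controls against 8.50, 9.42 and 8.85 CPM under CD69 overexpression. In both genes every overexpressing library lay outside the range of the controls. ENO1 fell by 0.49 (SE 0.10; quasi-likelihood adjusted p = 0.00806), and ENO2 rose 3.46-fold (log2 1.79, SE 0.15; quasi-likelihood adjusted p = 0.000196). ENO2 made up 0.0884 ± 0.011% of ENO1 and ENO2 counts per kb in the controls and 0.426 ± 0.0316% in the overexpressing libraries (SD, n = 3). PKM, the pyruvate kinase of most tissues, measured 2274, 2281 and 2687 CPM across controls against 2833, 2817 and 2989 CPM under CD69 overexpression. Its groups did not overlap, but it did not pass the test (0.25, SE 0.08; quasi-likelihood adjusted p = 0.0513). It was called higher in 7 of 17 alternatives, among them without control replicate 3 (0.34, adjusted p = 0.00406) and by DESeq2 (adjusted p = 0.0329). Counts per gene do not separate the PKM1 and PKM2 splice forms.

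Pyruvate is turned to lactate by LDHA, exported as lactate through SLC16A3 (MCT4), or burnt in mitochondria unless PDK1 blocks pyruvate dehydrogenase. SLC16A3 measured 281, 291 and 344 CPM across controls against 216, 205 and 223 CPM under CD69 overexpression, and fell by 0.51 (SE 0.09; quasi-likelihood adjusted p = 0.00525). It has 482 bases of exon over those of CSNK1D on the opposite strand, a gene at 106 to 123 CPM. LDHA measured 828, 823 and 847 CPM across controls against 754, 686 and 738 CPM under CD69 overexpression. It fell by 0.20 (SE 0.06; quasi-likelihood adjusted p = 0.0474), a change of 0.871-fold, and lost the call when any 1 of the 6 libraries was left out (adjusted p = 0.0635 to 0.201). PDK1 did not pass the test (-0.02, SE 0.08), and it measured 722, 715 and 599 CPM across controls against 685, 676 and 650.4 CPM under CD69 overexpression.

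The share of 1 isozyme in its family does not depend on scaling between libraries, and 8 such shares were compared. The groups did not overlap in 6 of them, each with an exact permutation p of 0.1, two-sided, the smallest that 3 against 3 libraries allow (0.133 adjusted over the 8 shares). Besides SLC2A3, ALDOC and ENO2 these were HK2 in HK1, HK2 and HK3 (33.9 ± 2.97% in the controls, 40.3 ± 0.86% in the overexpressing libraries), PFKP in PFKL, PFKP and PFKM (49.3 ± 0.635% and 56.9 ± 0.617%) and PDK1 in PDK1, PDK2 and PDK3 (81.7 ± 1.13% and 73.8 ± 0.446%; SD, n = 3). The PDK1 difference of -7.86 percentage points was -3.61 without division by exon length. In the hexokinase family HK3, a myeloid hexokinase, fell by 0.65 (SE 0.1). In the PDK family PDK3, another gene of chromosome X, rose by 0.73 (SE 0.08). LDHA in LDHA and LDHB was 29.1 ± 2.15% and 29.2 ± 2.17% (exact permutation p = 0.9), and PFKFB4 in PFKFB2, PFKFB3 and PFKFB4 was 16.7 ± 2.13% and 18.3 ± 0.476% (exact permutation p = 0.4).

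**Figure D3:**
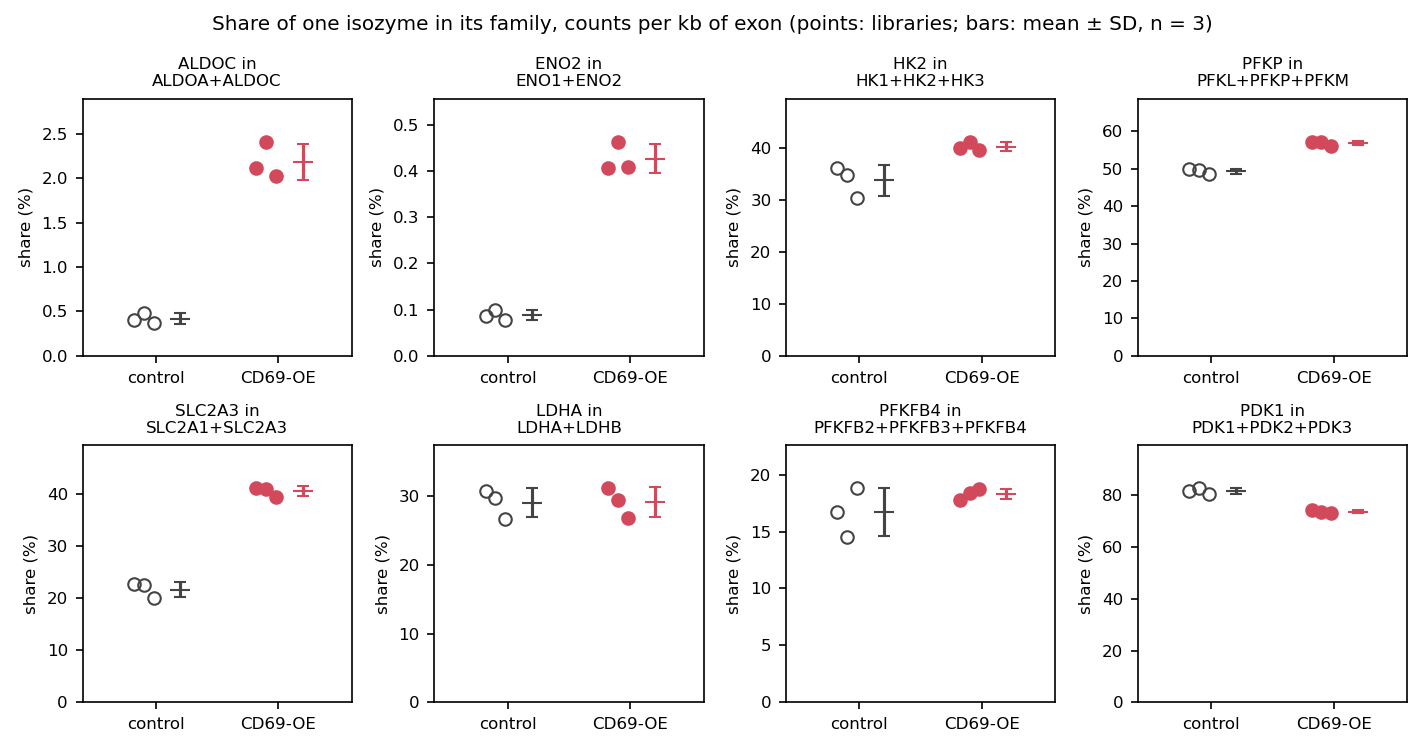
Share of 1 isozyme in its family in each library (vertical axes: percent of counts per kb of exon, from 0; open points: controls; filled points: CD69-overexpressing; bars: mean ± SD, n = 3). The groups are apart in 6 of the 8 panels, most widely for SLC2A3 (21.7% against 40.6%), and overlap for LDHA and PFKFB4.

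BNIP3, which sits on the outer mitochondrial membrane and marks mitochondria for autophagy, was the 1 gene called among the 11 other HIF targets. BNIP3 (ENSG00000176171; chromosome 10, 131966455 to 131982013, minus strand) measured 3.55, 6.01 and 5.57 CPM across controls against 22.1, 18.9 and 21.4 CPM under CD69 overexpression. The lowest overexpressing library was above the highest control by a wide margin, and the rise was 4.12-fold (log2 2.04, SE 0.20; quasi-likelihood adjusted p = 0.000391). BNIP3 has 44 annotated pseudogenes in the table, which summed to 7.23, 7.72 and 4.44 CPM across controls against 1.93, 1.95 and 3.04 CPM under CD69 overexpression, so part of its counts is uncertain. Gene and pseudogenes together held 10.8, 13.7 and 10.0 CPM across controls against 24.1, 20.8 and 24.4 CPM under CD69 overexpression, still without overlap. The relative rise of this sum was smaller than that of BNIP3 alone. Its paralogue BNIP3L, at 53.9 to 58.9 CPM in the controls and 58.7 to 62.9 CPM in the overexpressing libraries, did not pass the test (0.11, SE 0.07). For GAPDH, TPI1, LDHA, PGK1, ENO1 and PKM, pseudogenes named after the gene held at most 1.51% of the counts of gene and pseudogenes in any library.

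The windows before the starts of the largest rises and falls are shown because HIF is known to act on such genes through the letters ACGTG and GCGTG. Sequences are from RefSeq on GRCh38.p14 and give the 250 bases before the annotated start, 5′ to 3′ on the strand of the gene, with ACGTG or GCGTG on either strand in capitals. Shown are the 3 called members with the largest rises and the 2 with the largest falls among those with 1 annotated start whose transcript letters were found in the annotation. The windows are chr17:28576896-28577145 for ALDOC, chr10:131981924-131982173 for BNIP3, chr12:6914330-6914579 for ENO2, chr1:42958869-42959118 for SLC2A1 and chr1:8878687-8878936 for ENO1. All but that of ENO2 are on the minus strand.
ALDOC: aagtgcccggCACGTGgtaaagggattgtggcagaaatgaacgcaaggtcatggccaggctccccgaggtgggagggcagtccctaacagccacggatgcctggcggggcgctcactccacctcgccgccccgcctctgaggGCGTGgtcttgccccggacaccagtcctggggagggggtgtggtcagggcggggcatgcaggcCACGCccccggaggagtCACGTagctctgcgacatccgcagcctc
BNIP3: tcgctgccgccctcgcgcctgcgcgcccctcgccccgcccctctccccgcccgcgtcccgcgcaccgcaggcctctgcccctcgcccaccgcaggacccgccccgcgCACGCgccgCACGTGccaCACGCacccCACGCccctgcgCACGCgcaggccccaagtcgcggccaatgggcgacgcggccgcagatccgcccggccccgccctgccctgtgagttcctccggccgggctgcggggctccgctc
ENO2: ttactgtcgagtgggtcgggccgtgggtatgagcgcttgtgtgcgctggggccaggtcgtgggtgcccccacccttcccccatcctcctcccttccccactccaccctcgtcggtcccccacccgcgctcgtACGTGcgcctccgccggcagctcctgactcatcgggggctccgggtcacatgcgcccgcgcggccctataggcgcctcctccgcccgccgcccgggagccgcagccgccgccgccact
SLC2A1: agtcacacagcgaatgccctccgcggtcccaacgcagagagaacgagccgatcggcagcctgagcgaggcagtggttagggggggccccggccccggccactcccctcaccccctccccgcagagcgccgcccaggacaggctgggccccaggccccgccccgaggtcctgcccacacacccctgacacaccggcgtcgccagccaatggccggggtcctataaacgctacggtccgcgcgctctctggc
ENO1: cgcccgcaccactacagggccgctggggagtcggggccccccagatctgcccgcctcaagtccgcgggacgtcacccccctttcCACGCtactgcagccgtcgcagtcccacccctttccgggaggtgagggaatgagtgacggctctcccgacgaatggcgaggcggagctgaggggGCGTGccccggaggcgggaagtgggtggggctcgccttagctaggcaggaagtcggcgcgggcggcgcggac
The BNIP3 window held 6 matches, between 143 and 104 bases before the start, and that of ALDOC held 5, where CACGTG counts once on each strand in both. ENO2 had 1 match and ENO1 had 2, and these letters were not in the SLC2A1 window. GAPDH, also lower and with 1 window, held ACGTG there and is not shown because its transcript letters were not found. Windows were found for 29 of the 32 genes, 52 windows in all, of which 40.4% held ACGTG and 38.5% GCGTG. Over all 35116 RefSeq windows of the same length the shares were 18.5% and 32.2%. At least 1 of both motifs was in 43.2% of all RefSeq windows, and in 7 of 9 windows of the members that rose, 8 of 12 of those that fell and 19 of 31 of those not called. ACGTG itself was in 5 of 9 windows of the members that rose, 4 of 12 of those that fell and 12 of 31 of those not called. The windows of 1 gene overlap in part, and a match describes letters and not a site in use.

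The other HIF targets fell into genes at moderate levels and genes at very low levels. At moderate levels, NDRG1 (a stress-induced growth inhibitor), P4HA1 (a subunit of collagen prolyl hydroxylase) and KDM3A (a histone demethylase) had overlapping groups and log2 fold changes of -0.14 (SE 0.08), -0.05 (SE 0.06) and 0.11 (SE 0.09). MXI1, an antagonist of MYC, measured 37.8, 38.7 and 33.1 CPM across controls against 44.0, 43.1 and 42.0 CPM under CD69 overexpression. These groups did not overlap, yet MXI1 did not pass the test (0.24, SE 0.08; quasi-likelihood adjusted p = 0.0739). In all, 18 of the 32 members had groups without overlap (15 of 21 glycolysis genes and 3 of 11 other HIF targets), against 42.3% of all genes tested.

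Several of the low genes differed within the overexpressing group. EGLN3, an oxygen-sensing prolyl hydroxylase, measured 3.34, 3.51 and 2.91 CPM across controls, and 2.66, 0.355 and 0.627 CPM in replicates 1, 2 and 3 with CD69. CA9, a surface carbonic anhydrase that serves as a hypoxia marker, measured 1.84, 1.45 and 1.02 CPM across controls, and 1.14, 0.213 and 0.157 CPM in replicates 1, 2 and 3 with CD69. Replicate 1 thus lay near or within the controls, and replicates 2 and 3 lay far below. Over all libraries neither EGLN3 (-1.42, SE 0.65, adjusted p = 0.161) nor CA9 (-1.50, SE 0.71, adjusted p = 0.172) passed the quasi-likelihood test. Without overexpressing replicate 1 the log2 fold changes were -2.73 for EGLN3 and -2.94 for CA9. That library is left out here for its own values, so this cannot test the fall. EGLN3 was called lower by limma-voom over all libraries (-1.92, adjusted p = 0.0376), and CA9 with the replicate number as a block (-1.97, adjusted p = 0.0398). Of the 8 tested fibroblast and epithelial markers, 3 (COL1A2, KRT8 and KRT18) were likewise low in overexpressing replicates 2 and 3 alone, whereas COL3A1 was highest in replicate 2 (3.72 CPM), KRT19 stood at 7.09 and 17.1 CPM in replicates 2 and 3, and EPCAM was lower in all 3. KRT8 measured 55.6, 58.5 and 57.4 CPM across controls and 56.9, 14.3 and 11.3 CPM in replicates 1, 2 and 3 with CD69, and the part of these markers in the values of EGLN3 and CA9 was not tested. The libraries kept strand, whether the counting used it is not given in the sources used here, and CA9 has 643 bases of exon over those of ARHGEF39 on the opposite strand, a gene at 24.5 to 27.4 CPM in all libraries. P4HA2 and the peptide hormone gene ADM had their lowest values in overexpressing replicate 2 (1.51 and 1.76 CPM) and did not pass the test, and ANKRD37 lay at 1.13 to 2.10 CPM in all libraries.

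**Figure D4:**
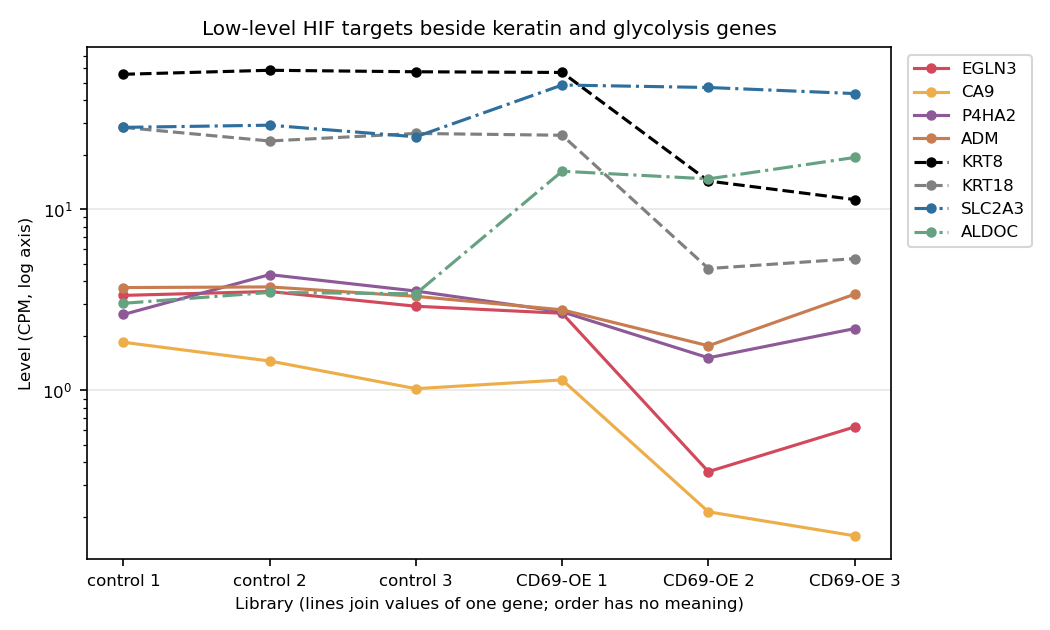
Levels of 4 low HIF targets (EGLN3, CA9, P4HA2, ADM), 2 keratins and 2 glycolysis genes in each library (vertical axis: CPM on a log scale; lines join the values of a gene). EGLN3, CA9 and the keratins are low in CD69-overexpressing replicates 2 and 3 only, whereas SLC2A3 and ALDOC are raised in all 3 overexpressing libraries.

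A further 7 lists of related genes, 117 genes of which 108 were tested, had 19 higher and 17 lower members. Called in either direction were thus 33.3% of those tested, against 24.1% over all genes tested. Of the 10248 coding genes of at least 5 CPM, 1835 were higher and 1599 lower, a share close to that of the lists. By list, the share called was 45.9% for further HIF targets, 38.5% for glycogen and gluconeogenesis and 30.8% for pyruvate entry. For the isozymes, the pentose phosphate pathway, the carriers and oxygen sensing it was near or below that of all genes. Of 38 further HIF targets 9 were higher and 8 lower of 37 tested, with a median log2 fold change of -0.10. The chemokine receptor CXCR4 rose from 136 ± 2.94 to 344 ± 13.2 CPM (SD, n = 3). The sterol regulator INSIG2 rose by 1.18 (SE 0.09) and ZNF395 from 71.2 ± 1.26 to 121 ± 4.04 CPM. ZNF395 shares exon bases on its own strand with FBXO16, whose part in this rise was not tested. The AP-1 factor FOSL2 fell by 0.85 (SE 0.08), haem oxygenase HMOX1 from 14.6 ± 2.01 to 6.79 ± 0.733 CPM and the mitochondrial adenylate kinase AK4 by 0.61 (SE 0.08). For LOX, LOXL2, PLOD2, ANGPTL4 and CA12, also on that list, overexpressing replicates 2 and 3 were both below 50% of the lowest other library. The same held for 442 of all 19485 tested genes (2.27%). None of the 5 named genes passed the quasi-likelihood test over all libraries. Without overexpressing replicate 1 their log2 fold changes were -3.80 for CA12, -2.53 for ANGPTL4, -2.01 for LOX, -1.86 for PLOD2 and -1.75 for LOXL2. These genes were chosen by their low values in replicates 2 and 3, so leaving out replicate 1 cannot test the fall.

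Among 15 tested genes of oxygen sensing, 2 were higher and 1 lower, with a median near 0. The HIF subunits did not pass the test: HIF1A was at 74.5 ± 11.6 and 74.5 ± 10.4 CPM (SD, n = 3) in the controls and overexpressing libraries, EPAS1 had a log2 fold change of -0.27 (SE 0.21) and ARNT of 0.08 (SE 0.09). EPAS1 measured 31.3, 20.1 and 16.9 CPM in overexpressing replicates 1, 2 and 3, and its log2 fold change was -0.58 without replicate 1. Here too replicate 1 is left out for its own value, so this cannot test a fall of EPAS1. EGLN1, the main prolyl hydroxylase that targets HIF, fell from 48.0 ± 5.50 to 30.6 ± 1.64 CPM (log2 fold change -0.65, SE 0.10; quasi-likelihood adjusted p = 0.00304). CITED2, a HIF-induced competitor for the coactivators of HIF, rose from 208 ± 4.72 to 318 ± 4.12 CPM (0.62, SE 0.05). HIF1AN, the asparaginyl hydroxylase that blunts HIF activity, rose by 0.37 (SE 0.07), a call lost without control replicate 2 (quasi-likelihood adjusted p = 0.0546) or overexpressing replicate 2 (adjusted p = 0.0559). VHL had a log2 fold change of 0.19 (SE 0.08) and did not pass the test.

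TIGAR, a phosphatase that lowers fructose 2,6-bisphosphate, fell from 21.3 ± 0.559 to 8.81 ± 0.986 CPM (SD, n = 3). It shares exon bases on its own strand with another annotated gene, whose part in this fall was not tested. Among 12 tested isozyme genes, TIGAR and HK3 were lower and the ADP-dependent glucokinase ADPGK was higher (0.38, SE 0.06). Of 10 tested carriers, 2 were lower and none higher in the quasi-likelihood test, with 0 higher by DESeq2 and 1 (SLC2A14) at an unadjusted p under 0.05. These were the lactate carrier SLC16A1 (MCT1), which fell by 0.54 (SE 0.07), and the fructose carrier SLC2A5, which fell by 0.37 (SE 0.08) and lost its call without overexpressing replicate 2 (quasi-likelihood adjusted p = 0.0502). Both SLC16A1 and SLC16A3 were thus lower.

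Of 13 genes of pyruvate entry into mitochondria 3 were higher and 1 lower: PDK3 rose as given above, the dehydrogenase subunit gene PDHA1 by 0.40 (SE 0.07) and the phosphatase gene PDP2 by 0.50 (SE 0.11), and the partner subunit gene PDHB fell by 0.32 (SE 0.08). PDK3 and PDHA1 lie on X. The call of PDP2 was lost without overexpressing replicate 2 and that of PDHB without control replicate 1 or overexpressing replicate 2. Of 8 tested genes of the pentose phosphate pathway, TKT rose by 0.33 (SE 0.07) and PGD fell by 0.30 (SE 0.07). The TKT call was lost without control replicate 1 or 2 or overexpressing replicate 1 or 2, and that of PGD without overexpressing replicate 1 or 2. Of 13 genes of glycogen and gluconeogenesis 3 were higher and 2 lower. The glycogen phosphorylases PYGB and PYGL rose by 0.56 (SE 0.07) and 0.32 (SE 0.06), where PYGB lies on chromosome 20, whose 286 coding genes of at least 5 CPM had a median of 0.40. Glycogen synthase GYS1 rose by 0.40 (SE 0.09), a call lost without control replicate 1 or 2 or overexpressing replicate 1 or 2. PGM1, which links glycogen to glycolysis, fell from 214 ± 14.7 to 139.9 ± 1.26 CPM, and the mitochondrial PCK2 fell by 0.58 (SE 0.09).

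**Figure D5:**
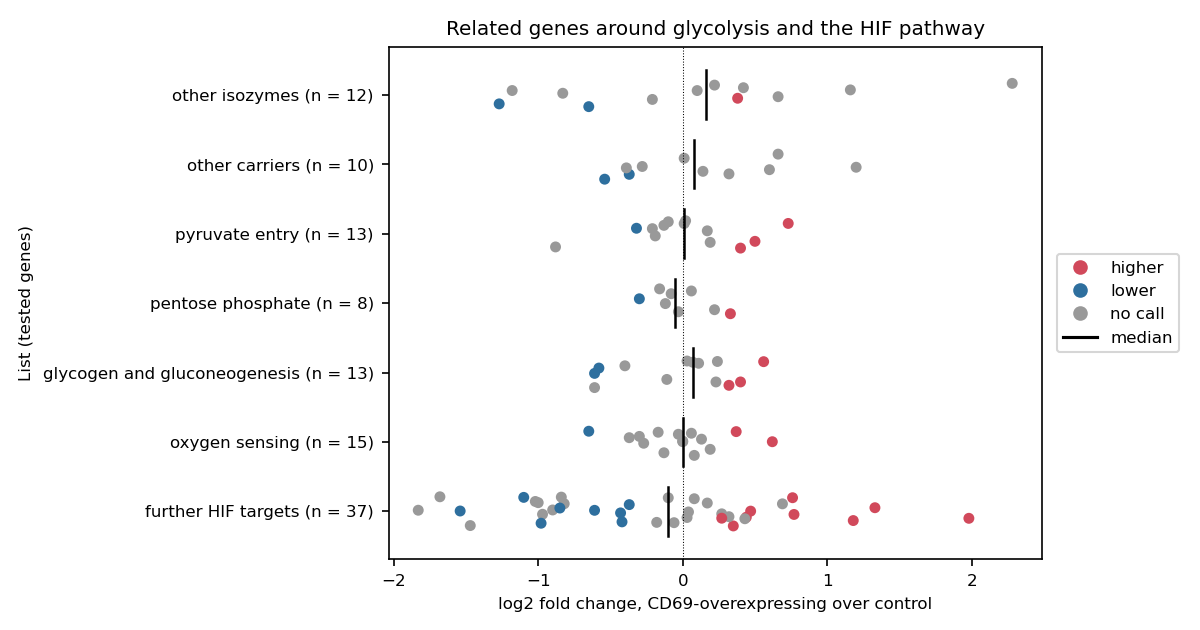
log2 fold change of each tested gene of the 7 related lists (horizontal axis; colour: result of the edgeR test; black bars: list medians). Each list except the carriers holds both higher and lower genes, and the medians lie between -0.10 and 0.16.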

How the data were processed

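RNA of 3 CD69-overexpressing and 3 control NB4 libraries was poly(A)-selected and sequenced in pairs. FastQC, fastp, STAR and featureCounts (Subread) on GRCh38 (hg38) are named in the submitters' processing notes. Their versions, the annotation, strand setting and unit of counting were not stated in labels or headers. The count table that the authors deposited was treated as estimated counts and rounded, a step that changed nothing. In every library more genes held 4 counts (1403 to 1496) than 3 (761 to 824), so 1 fragment may stand for about 4 counts and an alternative divided counts by 4. The design text calls the libraries biological replicates but does not state separate transductions, and p-values cover only the variation among these 6 libraries.

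Genes were kept by filterByExpr (19485), scaled by TMM and tested with the edgeR 4.0.16 quasi-likelihood test (R 4.3.3; two-sided), and p-values were adjusted over all tested genes by Benjamini-Hochberg. Alternatives were RLE, upper-quartile or no scaling factors, no filter, 50 counts in 3 libraries, DESeq2 1.42.0, limma-voom (limma 3.58.1), glmTreat, a replicate block, each library left out, overexpressing replicate 1 alone and, for shares, no division by exon length. Gene names came from the gene name table (61757 genes matched), positions and exon lengths from GENCODE 29. Simulated counts for the 19485 genes of this comparison gave calls for 77.8% and 84% of genes changed by -2 and 2 on the log2 scale, 50% and 58% at -1 and 1, and 4 of 18719 unchanged genes. There few genes were changed and libraries of a group were drawn alike, unlike overexpressing replicate 1 here. These rates therefore need not hold for the measured libraries. Libraries within a group differed by more than sampling noise: with counts divided by 4, chi-square over its degrees of freedom ran from 2.51 to 15.83. Figures used matplotlib 3.10.9. Members, lists, tests and the rule for naming genes were chosen with earlier results of these data known. Under that rule all members are accounted for, members that passed the test or whose groups did not overlap get per-library values, and up to 3 called genes per direction and related list are named by smallest p. KRT8, KRT18 and the genes below 50% were chosen after their values were seen. The values of 1 gene of the related lists are not reported here.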

Additional observations from a re-analysis of the deposited data

How the results depend on the processing

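Among the 32 members, ALDOC, ENO2, SLC2A3 and BNIP3 kept their call and direction under all 17 alternatives, with log2 fold changes of 2.22 to 2.42, 1.72 to 1.82, 0.69 to 0.82 and 1.84 to 2.17. None of the alternatives addressed reads that BNIP3 may share with its 44 pseudogenes. RLE or upper-quartile factors changed no count of members called. With 1 library left out, the glycolysis genes had 5 to 7 higher and 3 to 5 lower and a median of 0.0 to 0.09, the other HIF targets had 0 to 2 lower, the related lists had 14 to 27 lower, and all genes had 1783 to 2917 higher and 1137 to 2226 lower. With overexpressing replicate 1 alone against the controls, where that library is assumed to vary like the controls, the glycolysis genes had 3 higher and 0 lower, the related lists 8 and 2, and all genes 797 and 380. Against a fold of 1.2 the related lists had 10 higher and 11 lower and all genes 1723 and 874. DESeq2 gave 2 higher HIF targets and limma-voom 1 lower. With the replicate number as a block there were 2 higher and 1 lower HIF targets and 9 higher glycolysis genes. Deviations of same-numbered libraries from their group means correlated weakly (-0.033, 0.052 and 0.071), and not every library correlated best with its own number. With 3 libraries per group this does not show a pairing by number and cannot exclude it. Without division by exon length, the share difference was 1.33 percentage points for ALDOC, 0.275 for ENO2, 20.6 for SLC2A3 and -3.61 for PDK1. With 1 library left out the LDHA share difference ranged from -1.09 to 1.28 points. The cause of these shifts was not tested. Among members with a mean control level of 1 to 4 CPM, standard errors ran from 0.15 (ALDOC and ENO2) to 0.65 (EGLN3) and 0.71 (CA9).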
